A study of Mus musculus with 50 samples.

Results

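The genes described here are named for the protein components of the cytosolic ribosome, and whether each product is part of it was not tested. They were chosen by name: every protein-coding gene of the count table whose symbol begins with Rpl or Rps and a number, plus Rplp0, Rplp1, Rplp2 and Rpsa, with the ribosomal S6 kinases, Rps19bp1 and the named pseudogenes left out. The rule found 85 members among the 21647 genes of the table, 52 named for the large subunit and 33 for the small subunit. No measured value entered the choice. Of the 85, 83 had enough counts to be tested. The others were Rpl3l, the muscle form of Rpl3, with 90 counts over all libraries, and Rpl10l, the testis form of Rpl10, with 2.

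The libraries were made from CD8+ T cells of mouse spleen, the T cells that become killers of infected and transformed cells once their antigen receptor is engaged. They compare wild-type mice (WT) with knockout mice (KO), with 5 mice in each genotype. All mice were 10 weeks old and of the strain background given as C567BL/6J, and nothing in the labels names a promoter or a cell type to which the deletion is restricted. Cells were taken with magnetic beads against CD8a and sequenced before activation (0h) and after 2h, 6h, 12h and 24h on plates coated with anti-CD3e at 2 ug/ml, with soluble anti-CD28 at 2 ug/ml, which together stand in for antigen and its costimulation. The replicate numbers of the labels were taken to mark the same mouse of a genotype at all 5 times. The 10 groups of 5 libraries make 50 libraries.

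The levels are in CPM, counts divided by the library size, which was scaled by the TMM method and brought to a common total. Each is relative to the other polyadenylated RNA of its library, and the scaling moves it off a plain share of the counts. In such bulk samples, fewer cells of a type and less of an RNA per cell cannot be told apart. The quasi-likelihood test of edgeR over 13294 genes gave each log2 change, its standard error (SE) and its p, adjusted by Benjamini-Hochberg, and a gene is called where the adjusted p is under 0.05. The later times of a genotype are all compared with the same 0h libraries.

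Library totals ran from 9571625 to 31293872 counts, with a median of 23548632. The 5 CD8 T cell markers (Cd8a, Cd8b1, Cd3d, Cd3e, Cd3g) were detected in every group. The 0h library of WT mouse 3 stood apart: its 50 most abundant genes took 23.8% of the counts, against 8.55% to 14.8% in all other libraries, and the summed CD8 T cell markers reached 15208 CPM there against 1931 to 5377 in the other WT 0h libraries. The members were a median of 2.17 log2 units higher in it than in the other 4 WT libraries at 0h, with 72 of 83 higher, while the median of the other genes was 0.29 log2 units lower (a difference of -0.29). The 0h library of KO mouse 3 went the same way by 0.71, with 77 of 83 members higher. WT mice 1 and 4 carried immature thymocyte genes (Rag1, Rag2, Dntt and Ptcra) at a sum of 895 to 1194 CPM at 0h, against 7.76 to 56.9 in the other 0h libraries, and mitosis genes at 3304 to 4102 CPM. Summed over Cd79a, Cd79b, Ms4a1 and Pax5, B cell markers were also highest at 0h in mouse 3 of each genotype, at 196 CPM in WT and 281 in KO mice, against 4.65 to 70.9 and 54.6 to 71.2 CPM in the others. The erythroid markers stood at 77.6 CPM in WT mouse 3 and 38.7 CPM in KO mouse 3 at 0h, against 1.52 to 122 in the other WT and 10.4 to 28.5 CPM in the other KO mice. Values below use all libraries unless said otherwise, and most WT results are also given without the 0h library of WT mouse 3. The part of the other cell types in the results was not tested.

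A ribosome holds one copy of most of its proteins on a framework of ribosomal RNA, and the subunits are assembled in the nucleolus. In a resting T cell protein synthesis is low, and activation raises it as the cell enlarges before its first division. The mRNAs of ribosomal proteins are abundant and stable, and most begin with a C followed by a run of pyrimidines, called a TOP tract, through which mTOR signalling sets how many ribosomes translate them, so their mRNA level and their protein output need not move together.

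The starts of members that carry the results are shown first, since their first bases are where members of the set resemble each other and differ. Each line gives 15 bases before and 15 bases from the RefSeq transcript start on GRCm38.p6, 5′ to 3′ on the gene's strand. Capitals mark a C followed by at least 4 pyrimidines (C or T) that begins within 5 bases of the start.
Rpl27 (chr11:101442230-101442259, plus strand): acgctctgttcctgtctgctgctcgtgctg
Rpl7l1 (chr17:46782642-46782671, minus strand): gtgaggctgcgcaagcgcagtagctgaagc
Rps27l (chr9:66946071-66946100, plus strand): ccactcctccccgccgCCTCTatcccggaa
Rpl28 (chr7:4792950-4792979, plus strand): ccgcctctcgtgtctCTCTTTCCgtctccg
Rps6 (chr4:86857353-86857382, minus strand): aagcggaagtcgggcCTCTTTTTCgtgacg
Rps15a (chr7:118116133-118116162, minus strand): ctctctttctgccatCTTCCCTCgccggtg
Rps24 (chr14:24490663-24490692, plus strand): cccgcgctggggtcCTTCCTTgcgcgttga
Rps27 (chr3:90213634-90213663, minus strand): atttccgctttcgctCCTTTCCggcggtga
Rplp2 (chr7:141447636-141447665, plus strand): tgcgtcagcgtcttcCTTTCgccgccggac

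Of the 65 members with a promoter in the RefSeq table, 30 (46.2%) held this motif within 5 bases of an annotated start, against 21.1% of 26960 other genes searched on the gene's strand in the same way. At the start itself it was found in 14 members (21.5%) and in 2.96% of the other genes. A match is a match of letters, not a mapped start. Rpl27 and Rpl7l1, among the members that rose most, hold no match in this window, while Rps27l, Rpl28 and Rps6, which also rose, do. Rps15a, Rps24, Rps27 and Rplp2, as shown, hold a match. Rps13 and Rps3a1, called lower in both genotypes at 24h, hold none and are not shown. Among members called higher in KO cells at 24h, 3 of 8 with a promoter held the motif, and among those called lower 10 of 19 did.

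Member levels spanned a wide range within the set. Per kilobase of mRNA, mean levels over the 50 libraries ran from 1.28 CPM per kb for Rpl39l, a paralog of Rpl39 known from testis, to 3829 CPM per kb for Rplp1, a protein of the acidic stalk. Rpl8 stood at 3031, Rpl13a at 2261 and Rpl4 at 2255 CPM per kb. The 5 members with the most counts, Rpl4 first among them, took 40.2% of all counts of the set, and 11 members averaged under 10 CPM. Rps6, the small subunit protein whose phosphorylation is the usual readout of mTOR signalling, averaged only 6.61 CPM, and Rpl23a averaged 1.68 CPM.

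Copies of these genes elsewhere in the genome bear on what a read of 50 bases can be assigned to. Of the 50-base windows of each member's main mRNA, between 1.35% (Rps27) and 100% were found in no other annotated transcript, with a median of 40.0%, and 82 of 85 members shared windows with an annotated pseudogene. The 29 members with at least 50% of windows unique had a median level of 409 CPM per kb, and the 28 with under 25% had 63.9 CPM per kb. Rps6 had 15.4% and Rpl23a 14.3% of windows unique, against 92.1% for Rpl8. Spearman's rho between unique share and level was 0.42 over 83 members, which share the same libraries. How the authors' counting treated reads with several matches is not given in the sources used here, so the effect of shared sequence on the levels was not tested. Of the 85 members, 30 hold 59 snoRNA genes between their start and end, and 14 overlap exons of another gene.

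**Figure D1:**
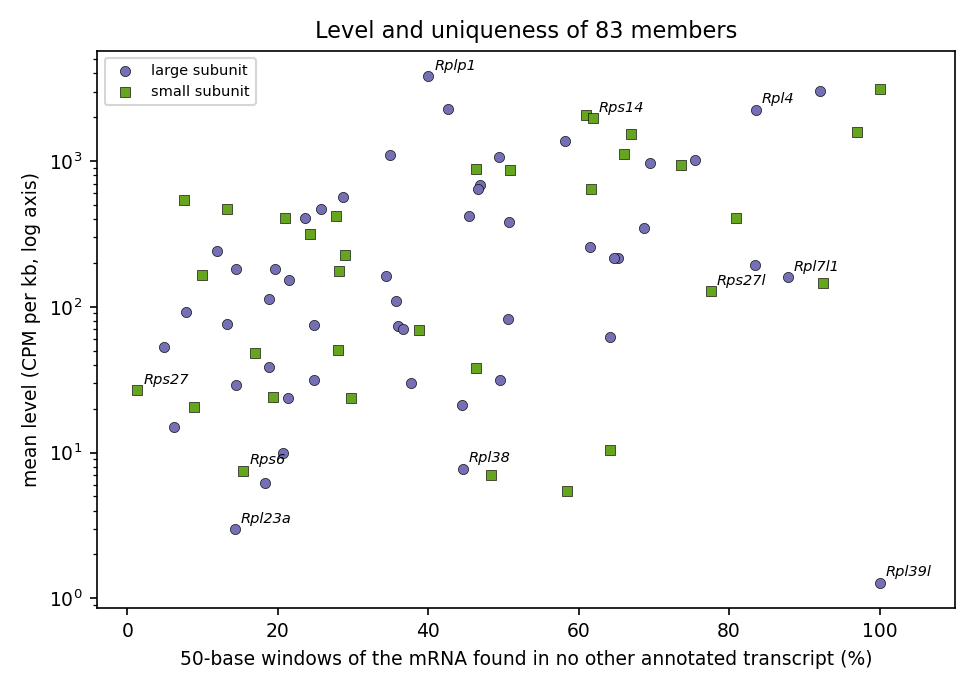
Each point is 1 of 83 tested members. The x axis gives the percent of 50-base windows of its main mRNA found in no other annotated transcript and the y axis (log) its mean level over 50 libraries in CPM per kb. Circles are members named for the large subunit and squares those named for the small subunit. Members with at least 50% of windows unique had a median of 409 CPM per kb and those under 25% a median of 63.9.

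The set as a whole took a smaller share of the mRNA of KO cells as activation went on. In KO cells the members' summed level was 34394, 37616, 58419, 36043 and 31565 CPM at 0h in mice 1 to 5, and between 25027 and 26778 CPM at 24h, so the groups did not overlap. The mean was 39607 ± 10752 CPM at 0h (SD, n = 5; 34904 ± 2586 without mouse 3) and 38848 ± 5671 at 2h. From 6h it was lower, at 29762 ± 3241, with 29248 ± 1750 at 12h and 25926 ± 722 CPM at 24h. As a plain share of the counts, the mean was 4.31% at 0h (3.81% without mouse 3), 3.77% at 2h and 2.53% at 24h. All 5 KO mice were lower at 12h and at 24h than their own 0h library, at 24h by log2 ratios of -0.46, -0.49, -1.18, -0.50 and -0.25.

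In WT cells the summed level at 0h was 23796, 28247, 169453, 24336 and 31549 CPM, where mouse 3 was far above the rest. At 12h it was 26710, 39859, 33125, 31971 and 45055 CPM, and at 24h 21866, 26091, 25384, 27221 and 27355 CPM. The mean without mouse 3 was 26982 ± 3634 CPM at 0h (SD, n = 4), and over all 5 mice it was 35344 ± 7168 at 12h and 25584 ± 2233 at 24h. The 4 other WT mice were higher at 12h than at 0h, with log2 ratios of 0.17, 0.50, 0.39 and 0.51, while that of mouse 3 was -2.35. At 24h the ratios of these 4 were -0.12, -0.11, 0.16 and -0.21, with no common direction. The genotypes thus met at 24h, at 25926 and 25584 CPM, from 0h levels of the 4 mice each without mouse 3 of 34904 and 26982 CPM.

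**Figure D2:**
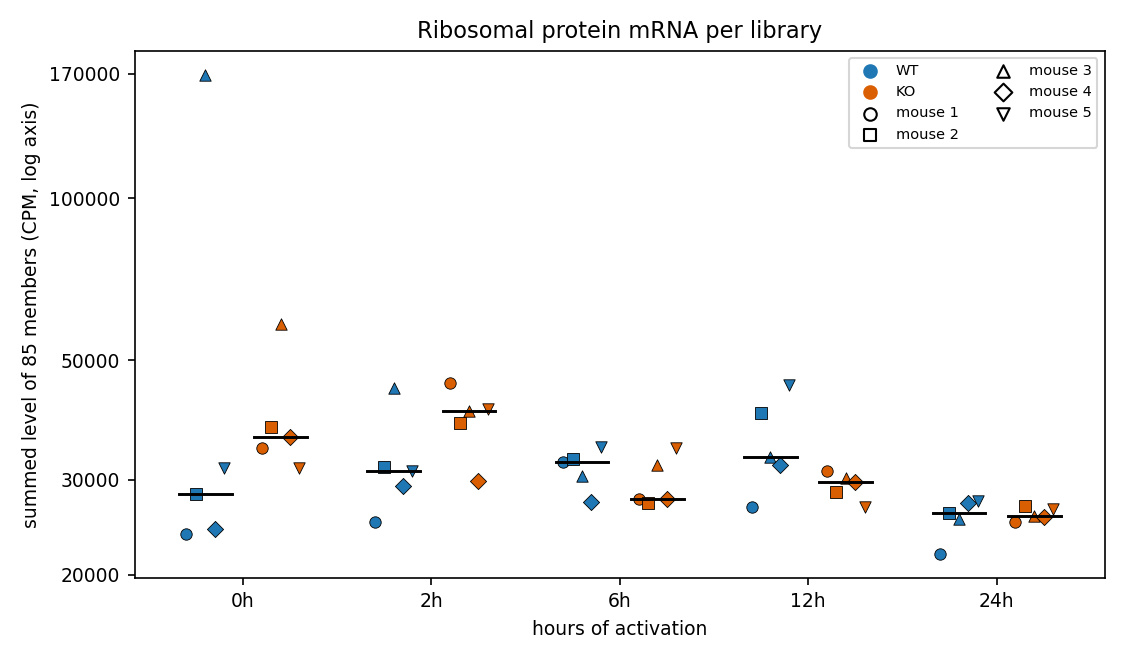
Each point is the summed level of the 85 members in 1 library (y axis, CPM, log scale) at the hours of activation on the x axis, blue for WT and orange for KO, with a marker shape per mouse and a bar at each group's median. WT mouse 3 stands at 169453 CPM at 0h, and by 24h all 10 libraries lie between 21866 and 27355 CPM.

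Behind the lower sum in KO cells, members moved both ways. At 24h in KO cells 11 of 83 members were called higher and 24 lower, where 30.7% of all tested genes were called higher and 28% lower, and the members' median log2 change was -0.35 against 0.02 for all genes. The share of members called lower was thus near the background and the share called higher below it. Counted by libraries that do not overlap, 11 were higher and 38 lower, against 34.5% and 26.5% of all genes. At 2h 8 were higher and 0 lower (background 20.3% and 19.6%; DESeq2 gave 9 and 0, and 0 members had a lower level at an unadjusted p under 0.05), and leaving out any 1 KO mouse left 2 or 3 higher. At 6h 18 were higher and 8 lower (26.8% and 22.4%), and at 12h 13 and 12 (27.8% and 25%). Without KO mouse 3 the members called lower dropped to 1 at 6h, 2 at 12h and 10 at 24h, with 18, 13 and 12 higher. Without the 0h library of WT mouse 3, whose spread enters the shared dispersion, they were 31, 32 and 40 (background 26%, 28% and 30.8%), with 19, 16 and 13 higher (27.8%, 29.2% and 31.7%). Leaving out any other 1 KO mouse gave 1 to 10 lower at 6h, 7 to 9 at 12h and 14 to 22 at 24h. The share of all genes called in the fits without 1 KO mouse is not given here.

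The members that rose and those that fell stood at different levels. In KO cells at 24h the 11 that rose (3 named for the small and 8 for the large subunit) had a median level of 45.1 CPM and a median of 15.4% unique windows. The 24 that fell (13 named for the small and 11 for the large subunit) had medians of 345 CPM and 54.6%. The relation of these values to the changes was not tested.

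In WT cells the counts turned on mouse 3. With all libraries, 4 members were called higher and 20 lower at 2h (background 14% and 16.2%), 17 and 26 at 6h (20.2% and 19.7%), 19 and 21 at 12h (19.3% and 20.2%), and 9 and 44 at 24h (19.9% and 24.2%). Without the 0h library of WT mouse 3 the 2h count was 8 higher and 0 lower (13.4% and 13.3%; 0 members were lower at an unadjusted p under 0.05). It was 30 and 0 at 6h (20.6% and 18.5%), 48 and 0 at 12h (20.8% and 19.7%), and 11 and 4 at 24h (20.9% and 23%). The members' median log2 change at 12h was -0.27 with that library and 0.50 without it, and at 24h it was -0.63 and 0.04. With mouse as a block and all libraries, 22 were higher and 3 lower at 12h (23.5% and 24.3%), and 13 and 38 at 24h (28% and 27.1%). Fitted on the WT 0h and 12h libraries alone, the count at 12h was 6 higher and 0 lower (5.66% and 5.03%), and 20 and 0 without mouse 3 at 0h (11.3% and 8.11%). By libraries that do not overlap, 6 members were higher and 0 lower at 12h (7.59% and 4.79%), and 19 and 0 without mouse 3 at 0h (11.4% and 8.46%).

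**Figure D3:**
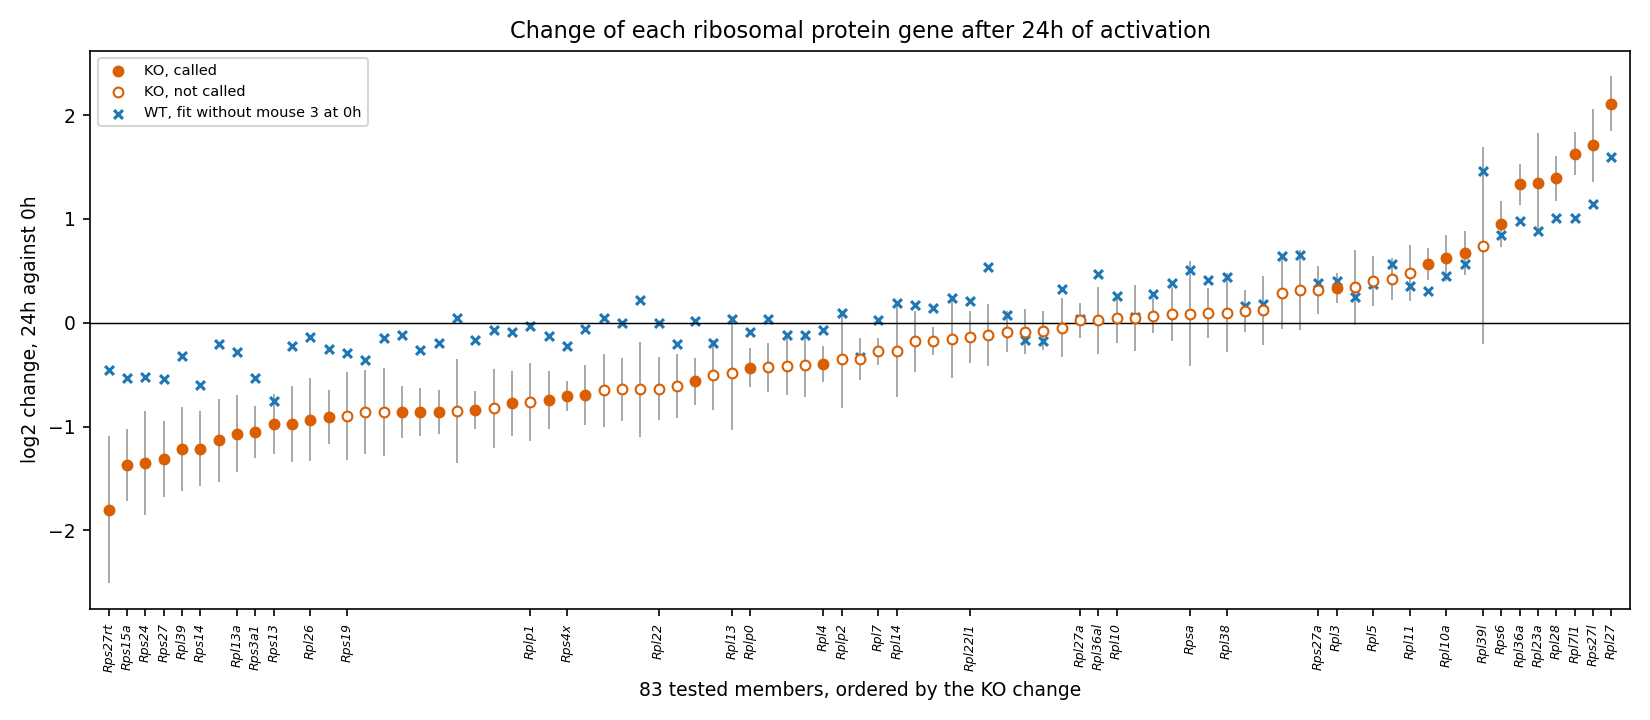
The y axis gives the log2 change from 0h to 24h of each of the 83 tested members, ordered along the x axis by its change in KO cells, for KO with all 50 libraries (orange circles, filled where called, with bars of 1 SE) and for WT without the 0h library of mouse 3 (blue crosses). Labels mark most of the members described in the text. In KO cells 11 members were called higher and 24 lower, from Rps27rt at -1.80 to Rpl27 at 2.11.

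Whatever was done with WT mouse 3, a small group of members rose in both genotypes. At 24h 8 members were called higher in both with all libraries (Rpl10a, Rpl23a, Rpl27, Rpl28, Rpl36a, Rpl7l1, Rps27l and Rps6), and 9 without the 0h library of WT mouse 3 (Rpl27, Rpl28, Rpl3, Rpl36a, Rpl7l1, Rps12, Rps2, Rps27l and Rps6). Of all tested genes, 17.6% and 18.4% were called higher in both, more than the members' share. Without that library Rpl10a and Rpl23a kept positive log2 changes of 0.45 and 0.89 in WT cells and were not called. At 12h 13 members were called higher in both genotypes, and 16 without that library (15.2% and 16% of all genes). At 6h the counts were 15 and 16 (16.3% and 16.7%), and at 2h 4 (Rpl27, Rpl28, Rpl5 and Rps27a; 12.5%) and 3 (11.7%), where Rps27a in WT cells was not called.

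Rpl27, a large subunit protein with 35.9% of its windows unique, rose most. In WT mice 1 to 5 it stood at 23.8, 10.5, 7.996, 22.2 and 13.3 CPM at 0h and at 33.1, 60.2, 54.9, 56.0 and 59.6 CPM at 24h. Its KO levels went from 13.3, 14.1, 10.1, 13.99 and 18.8 CPM to 57.1, 64.2, 63.7, 54.9 and 64.0 CPM. In both genotypes every 24h library lay above every 0h library, and WT mouse 1 was the lowest at 24h. The log2 change at 24h was 1.76 in WT (SE 0.26, adjusted p = 1.11e-06) and 2.11 in KO cells (SE 0.27, adjusted p = 2.09e-08). It was already 1.01 in WT (SE 0.26, adjusted p = 0.00235) and 0.88 in KO cells (SE 0.26, adjusted p = 0.00543) at 2h. At 12h it reached 2.23 in WT and 2.32 in KO cells. With the 0h library of WT mouse 3 left out, the WT changes were 0.84 at 2h, 2.05 at 12h and 1.60 at 24h, all called.

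Rps27l, a paralog of Rps27 and a known target of p53, was not called at 2h and rose by 6h. In WT mice it stood at 65.1, 10.3, 44.7, 51.4 and 15.5 CPM at 0h, with mice 1, 3 and 4 high, and at 66.9, 71.6, 77.4, 92.6 and 85.2 CPM at 24h. In KO mice it went from 17.4, 17.3, 45.6, 22.3 and 31.33 CPM to 98.9, 87.3, 80.2, 80.2 and 90.2 CPM, and the groups did not overlap in either genotype. The log2 change at 2h was -0.06 in WT (adjusted p = 0.927) and -0.53 in KO cells (adjusted p = 0.236), and at 6h it was 1.24 (SE 0.35, adjusted p = 0.00436) and 1.66 (SE 0.36, adjusted p = 0.000166). At 24h it was 1.07 (SE 0.35, adjusted p = 0.0115) and 1.71 (SE 0.36, adjusted p = 8.77e-05). The WT changes without WT mouse 3 at 0h were 1.30 at 6h and 1.15 at 24h, both called.

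Rpl7l1, a paralog of Rpl7 with 87.8% of its windows unique, followed the same course. Its WT levels at 0h were 173, 71.7, 116, 155 and 84.5 CPM, and at 24h 159, 248, 267, 275 and 274 CPM, so that mouse 1, the highest at 0h, was not higher at 24h and the WT groups overlapped. In KO mice it went from 70.6, 86.3, 108, 89.0 and 96.1 CPM to 290, 275, 267, 268 and 292 CPM without overlap. At 24h the log2 change was 1.03 in WT (SE 0.20, adjusted p = 9.23e-05) and 1.63 in KO cells (SE 0.21, adjusted p = 2.68e-08). At 2h it was 0.00 and 0.29, not called in either. When WT mouse 3 at 0h was left out, the WT change at 24h was 1.01, called.

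Further members rose in both genotypes at 24h. Rpl28 changed by 0.94 in WT (SE 0.21, adjusted p = 0.000421) and by 1.39 in KO cells (SE 0.21, adjusted p = 8e-07), and it was also called at 2h. Rpl36a changed by 0.93 and 1.34, and Rps6 by 0.87 and 0.95, all called. Rpl23a changed by 1.18 (SE 0.47, adjusted p = 0.0394) and 1.35 (SE 0.47, adjusted p = 0.0138), at a mean of 1.68 CPM. The WT changes of Rpl28, Rpl36a and Rps6 without WT mouse 3 at 0h were 1.01, 0.98 and 0.85, all called.

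**Figure D4:**
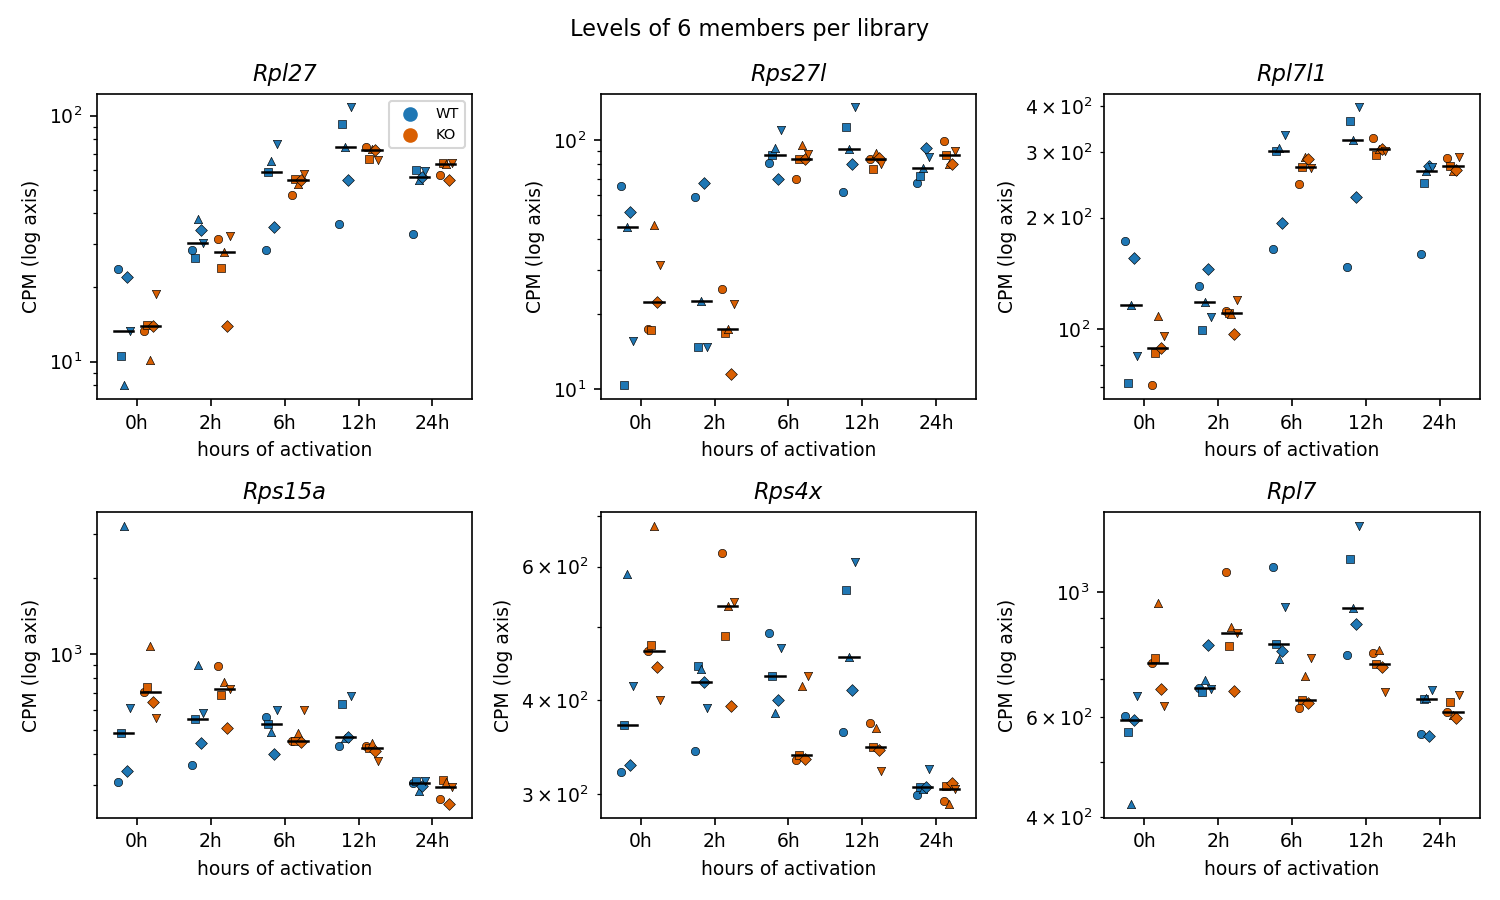
The panels give the level of Rpl27, Rps27l, Rpl7l1, Rps15a, Rps4x and Rpl7 in each library (y axis, CPM, log scale) by hours of activation, blue for WT and orange for KO, with a bar at each group's median. Rpl27 rises in both genotypes, and Rps15a stands at 3232 CPM in WT mouse 3 at 0h and between 253 and 316 CPM in all 10 libraries at 24h.

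Members that fell in both genotypes numbered 23 with all libraries and 4 without the 0h library of WT mouse 3, against 20.1% and 20% of all genes. These counts are for 24h, and the 4 were Rps13, Rps14, Rps15a and Rps3a1, all of the small subunit. At 12h 5 were called lower in both (13.8%) and without that library 0 (13.5%), since no member was then called lower in WT cells at 12h.

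Rps14, a protein of the small subunit platform whose loss causes the anemia of 5q deletion, fell in both genotypes under both treatments of WT mouse 3. Its WT levels at 0h were 932, 946, 8762, 886 and 1073 CPM, and at 24h 652, 595, 572, 716 and 639 CPM. Its KO levels went from 1249, 1267, 2057, 1218 and 967 CPM to 507, 606, 581, 607 and 613 CPM. Every 24h library was below every 0h library, and mouse 3 was the highest at 0h in each genotype. The log2 change was -1.99 in WT (SE 0.37, adjusted p = 3.59e-05), -0.60 without WT mouse 3 at 0h and still called, and -1.21 in KO cells (SE 0.36, adjusted p = 0.00401).

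Rps15a, also of the small subunit, went from 309, 485, 3232, 341 and 607 CPM in WT mice to 306, 312, 285, 298 and 313 CPM at 24h. The lowest 0h library, WT mouse 1, lay inside the 24h range. In KO mice it went from 706, 736, 1080, 641 and 557 CPM to 265, 316, 310, 253 and 296 CPM without overlap. The log2 change was -1.72 in WT (SE 0.35, adjusted p = 0.000131), -0.53 without WT mouse 3 at 0h and still called, and -1.37 in KO cells (SE 0.35, adjusted p = 0.000899). Rps3a1 changed by -1.17 in WT and -1.06 in KO cells, and Rps13 by -0.998 and -0.98, all called, with WT changes of -0.53 and -0.75 without that library.

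For others the WT fall rested on mouse 3. Rps27rt, a retrogene of Rps27, had a log2 change of -3.50 in WT cells at 24h and of -0.45, not called, without the 0h library of WT mouse 3. The values were -2.78 and -0.52 for Rps24, and -1.82 and -0.32 for Rpl39, a short protein of the exit tunnel, neither called without it. In KO cells these 3 changed by -1.80 (SE 0.71, adjusted p = 0.0275), -1.35 (SE 0.50, adjusted p = 0.0195) and -1.22 (SE 0.40, adjusted p = 0.00956). For each of them mouse 3 was also the highest KO library at 0h. With 1 mouse left out at a time, the KO change ran from -2.27 to -0.88 for Rps27rt. It ran from -1.46 to -1.09 for Rps24 and from -1.33 to -0.90 for Rpl39. Whether each was still called then is not given here.

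Members with known separate roles went different ways. Rplp0, Rplp1 and Rplp2 form the acidic stalk that recruits translation factors to the ribosome. In KO cells at 24h their log2 changes were -0.43 (SE 0.19, adjusted p = 0.0453), -0.76 (adjusted p = 0.0787) and -0.35 (adjusted p = 0.529). In WT cells these were -0.58, -1.43 and -1.76, all called, and -0.09, -0.03 and 0.09 without the 0h library of WT mouse 3, none called. Rplp2 stood at 278, 426, 4821, 299 and 371 CPM at 0h in WT mice, with mouse 3 far above the other 4.

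Rpl5 and Rpl11 bind the 5S ribosomal RNA and, when ribosome assembly is disturbed, hold back Mdm2, the ligase that removes p53. Rpl5 stood at 16.2, 19.1, 15.6, 16.2 and 21.9 CPM at 0h in WT mice and at 16.8, 33.5, 57.6, 24.6 and 38.9 CPM at 2h, where mouse 1 had not moved. In KO mice it went from 19.5, 18.3, 25.1, 20.8 and 19.9 CPM to 35.1, 31.4, 34.6, 38.5 and 31.4 CPM, with no overlap. The log2 change at 2h was 0.94 in WT (SE 0.24, adjusted p = 0.00252) and 0.72 in KO cells (SE 0.24, adjusted p = 0.0146), and at 24h it was 0.42 and 0.40, not called in either. Its WT change at 2h without WT mouse 3 at 0h was 0.88, called. Rpl11 rose by 0.71 in KO cells at 6h (SE 0.27, adjusted p = 0.0266) and stood at 0.48 at 24h (adjusted p = 0.123). In WT cells Rpl11 was not called at any time with all libraries, and without the 0h library of WT mouse 3 it changed by 0.66 at 6h and 0.59 at 12h, both called.

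Rps27a, made as a fusion with ubiquitin, took the same early course as Rpl5. Its log2 change at 2h was 0.69 in WT (SE 0.23, adjusted p = 0.0202; 0.53 and not called without WT mouse 3 at 0h) and 0.63 in KO cells (SE 0.23, adjusted p = 0.0261). At 6h it was 1.23 and 0.96, both called, and at 24h 0.53 (adjusted p = 0.0576) and 0.32 (adjusted p = 0.239). Rpl10, which joins the large subunit late in its maturation, was called at 6h in both genotypes, at 1.22 (SE 0.24, adjusted p = 7.05e-05) and 0.74 (SE 0.24, adjusted p = 0.00875), and at 24h in neither. The WT changes of Rps27a and Rpl10 at 6h without WT mouse 3 at 0h were 1.06 and 1.05, both called.

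Rps19, the gene most often mutated in Diamond-Blackfan anemia, had a log2 change of -0.90 in KO cells at 24h (adjusted p = 0.0676) and was called there, at -0.93, without the 0h library of WT mouse 3. Rpl13a, which leaves the ribosome to repress inflammatory mRNAs in myeloid cells, had a log2 change of -1.07 in KO cells (SE 0.37, adjusted p = 0.0137), and in WT cells of -1.71, or -0.28 and not called without that library. Rpl26, which binds the p53 mRNA, had a log2 change of -0.93 in KO cells (SE 0.40, adjusted p = 0.0414), and in WT cells of -1.73, or -0.14 and not called. Rpl38, known for its role in the translation of Hox mRNAs, stood at -0.47 in WT cells, or 0.44 without that library, and at 0.10 in KO cells, with none of these called. Rpsa, also described as a laminin receptor, stood at 34.3, 27.1, 749, 31.7 and 28.7 CPM at 0h in WT mice. Its WT change at 24h was -2.004, called, and 0.51, not called, without that library, and its KO change was 0.09.

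Paralogs of one protein were not always called alike. Rps27l rose in both genotypes at 24h, while Rps27, with 1.35% of its windows unique, had a log2 change of -1.31 in KO cells (SE 0.37, adjusted p = 0.00219) and of -1.58 in WT cells (-0.54 and not called without WT mouse 3 at 0h). Rpl7l1 rose in both, while the change of Rpl7 was 0.12 in WT (adjusted p = 0.494) and -0.28 in KO cells (adjusted p = 0.0703). Rpl36a rose in both, and the change of Rpl36al was -0.56 in WT (adjusted p = 0.16; 0.47 and not called without WT mouse 3 at 0h) and 0.02 in KO cells (adjusted p = 0.955). Rpl22, which T cell development requires, stood at -0.63 in KO cells (adjusted p = 0.0712) and Rpl22l1 at -0.14 (adjusted p = 0.642). Rpl39 fell in KO cells, and Rpl39l, at a mean of 0.706 CPM, was not called at any time. Rpl3 changed by 0.34 in KO cells at 24h (SE 0.14, adjusted p = 0.0404). The difference between the paralogs of a pair was not tested.

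The comparison of genotypes asks whether the loss of the deleted gene alters these mRNAs before or during activation. At 24h 0 members were called by edgeR or by DESeq2, and 0 passed an unadjusted p under 0.05 (background 0.00752% higher and 0.0376% lower). At 2h edgeR and DESeq2 also called 0 (2.9% and 8.9%), with 7 members higher and 1 lower at an unadjusted p under 0.05. Without WT mouse 3 at all times 20 members were called higher and 1 lower at 2h (4.92% and 16.7%). At 6h edgeR called 0 (2.53% and 7.59%), with 0 and 2 at an unadjusted p under 0.05, and DESeq2 called 1 lower. Without WT mouse 3 edgeR called 1 higher and 6 lower at 6h (8.16% and 17.5%).

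At 0h 1 member was called higher and 3 lower in KO cells, against 2.34% and 5.59% of all genes. Rpl13 differed by -2.16 (SE 0.57, adjusted p = 0.0192), Rpsa by -2.002 (SE 0.52, adjusted p = 0.0186), Rpl14 by -1.40 (SE 0.45, adjusted p = 0.0455) and Rpl7 by 0.41 (SE 0.13, adjusted p = 0.0484). Without the 0h library of WT mouse 3 the direction turned: 35 members were called higher and 0 lower (3.6% and 8.47%), Rpl13, Rpsa and Rpl14 stood at 0.66, 0.54 and 0.57, not called, and the members' median went from -0.29 to 0.48. Among the members then called were Rps15a at 0.80 and Rpl13a at 0.77. For 23 members every KO library lay above the 4 WT libraries then left, against 3.22% of all genes, and for 0 every KO library lay below them, against 6%. Without mouse 3 of both genotypes 1 member was called higher and 0 lower (1.44% and 3.46%). Without WT mice 1 and 4 and the 0h library of WT mouse 3, which leaves WT mice 2 and 5, 4 members were called, higher and lower summed. WT mice 1 and 4, with the thymocyte and mitosis genes, had the lowest summed levels at 0h, at 23796 and 24336 CPM. WT mice 2 and 5 stood at 28247 and 31549 CPM, and the KO mice at 31565 to 58419 CPM. The part of the thymocyte genes in the difference was not tested. In a fit of the 0h libraries alone 0 were called with WT mouse 3 (0% of all genes in each direction) or without it (0.0165% and 0%). With all others kept, leaving out WT mouse 1, 2 or 5 gave 10, 19 or 15 members lower and at most 1 higher, WT mouse 4 gave 2 lower, and leaving out KO mouse 1, 2, 4 or 5 gave 0. For these fits, and for the one that leaves WT mice 2 and 5, the share of all genes called is not given here.

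At 12h 3 members were called lower in KO than in WT cells and 0 higher, against 7.55% and 5.54% of all genes. They were Rps4x at -0.45 (SE 0.14, adjusted p = 0.0323), Rpl7 at -0.44 (SE 0.13, adjusted p = 0.0262) and Rpl27a at -0.48 (SE 0.17, adjusted p = 0.0486). Leaving out any 1 KO mouse, or WT mouse 5, left 0 called, WT mouse 2 or 4 left 1, and without WT mouse 3 there were 2 higher and 12 lower (9.39% and 14.6%). A fit of the 12h libraries alone called 2 higher and 17 lower (14.1% and 15.7%). Without WT mice 1 and 4 the count was 10 lower and 0 higher (9.03% and 13.9%), and without these and the 0h library of WT mouse 3 it was 57 lower and 0 higher (19.6% and 17.6%). Over all tested members the difference was negative in 73 and positive in 10, with a median of -0.29 against -0.10 for all genes.

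Rps4x, the X-linked form of S4, shows the pattern. At 12h it stood at 363, 558, 456, 412 and 609 CPM in WT mice and at 372, 347, 367, 344 and 322 CPM in KO mice, where WT mouse 1 lay within the KO range and the other 4 above it. At 0h it stood at 321, 370, 586, 328 and 418 CPM in WT and at 464, 473, 679, 443 and 400 CPM in KO mice, with overlap. Its log2 change from 0h to 12h was 0.25 in WT (adjusted p = 0.173; 0.40 and called without WT mouse 3 at 0h) and -0.49 in KO cells (SE 0.14, adjusted p = 0.00407), and the difference of the 2 changes was -0.73 (SE 0.20, adjusted p = 0.0174). It was not called without WT mouse 2, 4 or 5 or without KO mouse 2 or 3, at -0.59 to -0.73.

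Rpl7 rose in WT cells and its change differed between the genotypes. In WT mice it went from 605, 565, 422, 593 and 654 CPM at 0h to 772, 1144, 936, 879 and 1307 CPM at 12h, with no overlap. The KO mice stood at 748, 764, 957, 674 and 628 CPM and then at 778, 744, 789, 738 and 665 CPM, with the groups mixed. The log2 change was 0.83 in WT (SE 0.13, adjusted p = 4.61e-06; 0.72 and called without WT mouse 3 at 0h) and -0.02 in KO cells (adjusted p = 0.905). The difference of the changes was -0.79 at 6h (SE 0.19, adjusted p = 0.0183) and -0.85 at 12h (SE 0.19, adjusted p = 0.00342). It stood at -0.73 and -0.76, called at both times, without the 0h library of WT mouse 3. In a fit of only the libraries compared, neither Rpl7 nor Rps4x was called, at -0.82 and -0.84 for Rpl7 at 6h and 12h and -0.71 for Rps4x at 12h.

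Rps4x and Rpl7 were the members whose difference of changes was called with all libraries. It was called for 0 members higher and 1 lower at 6h (background 2.09% and 0.376%), and for 0 and 2 at 12h (5.54% and 1.96%). At 6h leaving out WT mouse 1 or 4, or any of KO mice 1 to 4, left 0 called. At 2h and 24h 0 were called by edgeR and by DESeq2 (0.015% and 0% at 2h, 0.015% and 0.0602% at 24h), with 11 higher and 0 lower, and 10 and 1, at an unadjusted p under 0.05. Without the 0h library of WT mouse 3 the counts were 0 and 23 at 6h (4.2% and 1.85%) and 0 and 44 at 12h (8.76% and 4.99%), with a median difference of -0.76 at 12h. At 12h 30 members, all among these 44, were called lower without mouse 3 of both genotypes at 0h (7.45% higher and 3.32% lower in all genes). A fit of only the libraries compared, without WT mouse 3 at 0h, also called 30, all among the 44 (7.57% and 3.29%). With mouse as a block without that library 44 were called, 43 of them among these. Without WT mice 1 and 4 and that library the count was 57 (15.6% higher and 13.6% lower in all genes), with 42 of the 44 among them.

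Without that library, 10 members were called higher in WT and lower in KO cells at 12h, where 0.335% of all genes were: Rpl22, Rpl26, Rpl32, Rpl35a, Rpl37, Rpl37a, Rpl4, Rplp0, Rps4x and Rps9. Rpl4, the most abundant member, stood at 2932, 3050, 7615, 2904 and 3294 CPM at 0h and at 3008, 4167, 3846, 3472 and 4727 CPM at 12h in WT mice. The KO mice stood at 3457, 3879, 5183, 3793 and 3324 CPM and at 3472, 3245, 3384, 3309 and 3036 CPM. Its change was 0.32 in WT and -0.28 in KO cells, both called, and -0.04 and -0.26, not called, with all libraries. With 1 mouse left out at a time and all others kept, its KO change ran from -0.32 to -0.15. The count of 10 keeps the 0h library of KO mouse 3, where 77 of 83 members were higher than in the other KO libraries. How many of the 10 are called without it is not given here. The summed thymocyte markers ran from 0.921 to 625 CPM over the WT and from 0.529 to 1.06 CPM over the KO libraries at 12h, and their part in the difference was not tested.

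**Figure D5:**
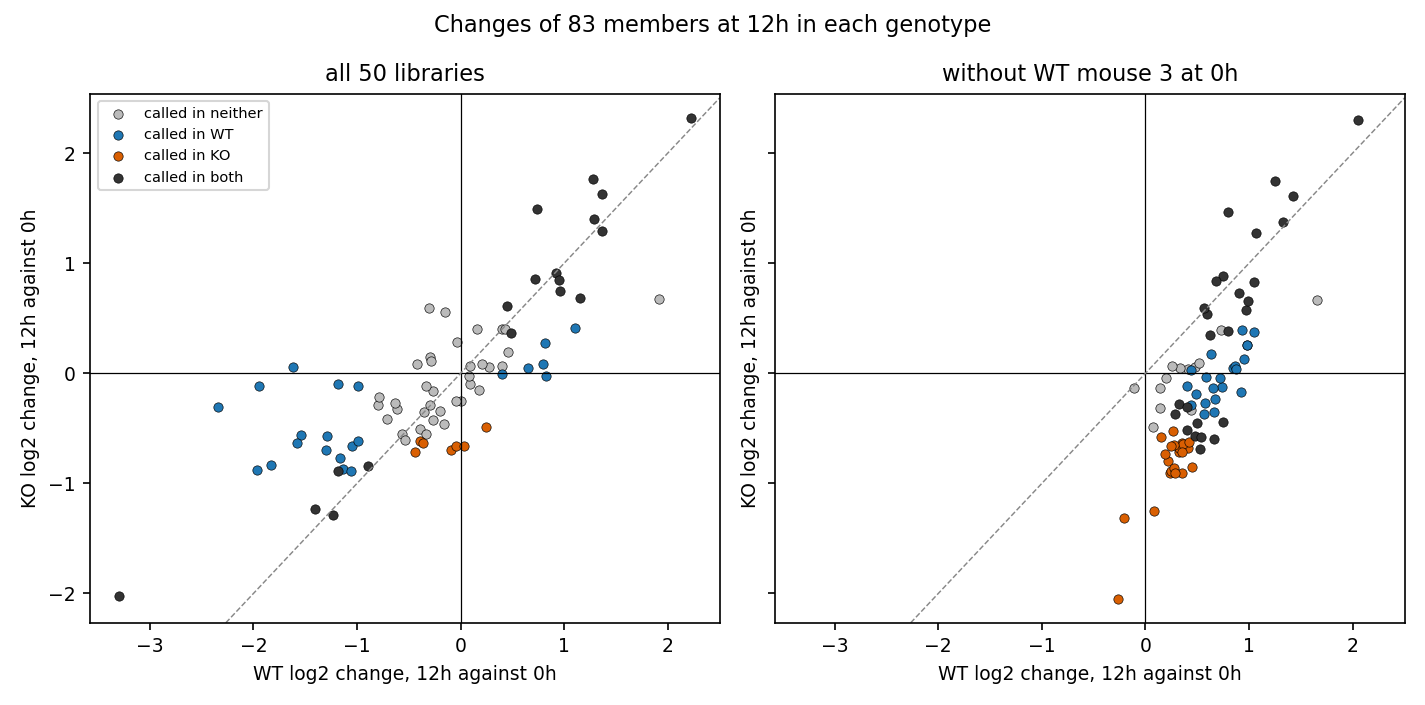
Each point is 1 of 83 tested members, with its log2 change from 0h to 12h in WT (x axis) and KO cells (y axis), from all 50 libraries on the left and without the 0h library of WT mouse 3 on the right; the dashed line marks equal changes. The members' WT median moves from -0.27 to 0.50 between the panels and the KO median from -0.15 to -0.17.

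Other genes of the ribosome and its making give the setting. Rack1, a scaffold protein of the small subunit outside the naming rule, was called lower at 24h in both genotypes, at -0.71 and -0.54, and in WT cells stood at -0.09, not called, without the 0h library of WT mouse 3. Fau, which encodes a small subunit protein fused to a ubiquitin-like one, was not called in either with all libraries, and without that library was called in WT cells, at 0.62. Of 18 elongation and related factors, 7 were called higher and 3 lower in WT cells at 24h, and 6 and 2 in KO cells. Leaving out WT mouse 3 at 0h, these were 8 and 1 in WT and 8 and 4 in KO cells. Of all tested genes, 19.9% were called higher and 24.2% lower in WT cells at 24h, and 30.7% and 28% in KO cells. Without that 0h library the shares were 20.9% and 23% in WT and 31.7% and 30.8% in KO cells. Of 30 nucleolar ribosome biogenesis genes, 27 were called higher and 0 lower in WT cells at 24h with a median of 1.19, and 30 and 0 in KO cells with a median of 1.76. At 12h these counts were also 27 and 30, with medians of 1.27 and 2.03, while the members' medians at 12h were -0.27 and -0.15. Without the 0h library of WT mouse 3 the members' medians at 12h were 0.50 and -0.17, so that the WT median turned, and 27 and 30 nucleolar genes were called higher with medians of 1.23 and 2.01. Of all genes, 19.3% in WT and 27.8% in KO cells were called higher at 12h, and 20.8% and 29.2% without that library.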

How the data were processed

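Per the labels' protocols, poly(A) RNA went into stranded libraries, read from 1 end over 50 bases. The authors deposited unnormalized read counts by gene and library, which are the only values used here. Tools given in the submitters' processing notes are featureCounts 1.4.6, STAR 2.4 and CASAVA 1.8.2, with GRCm38 as the build. The annotation release, the strand setting and the handling of reads with several matches are not given in the sources used here. Symbols came from GENCODE M21, which matched 21583 of 21647 identifiers and left 64. Whether the counts bear out the genotype labels is not reported here.

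Genes were kept by filterByExpr by group (minimum count 10, minimum total 15, smallest group 5), scaled by TMM and fitted with 1 mean per genotype and time in edgeR 4.0.16 (R 4.3.3) with robust quasi-likelihood, leaving 40 residual degrees of freedom and a common dispersion of 0.214. P values were adjusted by Benjamini-Hochberg over all genes tested. DESeq2 1.42.0 was an alternative, and the fit was tested on simulated data. Libraries of the same mouse deviated together from their group means, with mean correlations of 0.415 to 0.638 in WT and 0.212 to 0.356 in KO mice. The correlation between different mice of a genotype was not computed. A number was taken to mark 1 mouse within a genotype. The same number in the other genotype is another mouse, at a mean of -0.01. Mouse as a block was therefore fitted as an alternative for the changes over time and the interactions. It was not fitted for KO against WT, where libraries of 1 mouse count as independent and p values may be too small. No 2 replicates were identical (Spearman's rho of at most 0.982).

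The members, the other gene lists, the tests and the naming rule were chosen with earlier results of these data known. Named are the summed level, fixed members with a separate role or a paralog, up to 5 members per direction with the largest mean change among those called the same way in both genotypes, up to 5 called per genotype comparison, and untested members. The 10 members called in opposite directions, Rps12 and Rps2, and the members lower in both genotypes without WT mouse 3 were named after their values were seen. Start sequences came from the RefSeq promoter table of GRCm38.p6, and unique windows from GENCODE M21 transcripts.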

Additional observations from a re-analysis of the deposited data

Results flagged for a closer look

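Within a group of 5 libraries, the gap of the highest or lowest library to its neighbour was divided by the group's range and held against Dixon's 95% limit, a rule that chance meets in about 1 group in 20. The summed level of the members met it at 0h, with a ratio of 0.947 in WT and 0.775 in KO mice, mouse 3 being the highest each time. Of 39 named members, 25 met it at 0h in WT mice (mouse 3 high in 23 and low in 2) and 19 in KO mice (mouse 3 high in all 19). At later times the WT counts were 8 at 2h, 2 at 6h and 12 at 24h, where mouse 1 was the low library in 11. In KO mice 3 members met it at each of 2h, 12h and 24h, and 1 did at 6h. The share of all tested genes that meet the rule was not computed, and some named members were chosen by their changes from 0h. In WT mouse 3 at 0h, 57 of 83 members and 20.2% of the other genes were over 1 log2 unit above the mean of the other WT libraries.

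The change from 0h differed between the genotypes, by the interaction term of the edgeR fit, for Rpl7 at 6h (a log2 difference of -0.79, KO minus WT) and at 12h (-0.85), and for Rps4x at 12h (-0.73). At 12h the WT change of Rpl7 was positive and its KO change near 0, and that of Rps4x was negative in KO cells.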

How the results depend on the processing

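The settings below change 1 choice each, or those named together, and give the number of members called, higher and lower summed. With all libraries the changes at 2h, 6h, 12h and 24h had 24, 43, 40 and 53 calls in WT and 8, 26, 25 and 35 in KO cells, KO against WT at 0h, 6h and 12h had 4, 0 and 3, and the differences of the changes at 6h and 12h had 1 and 2. Counts that moved by over 1.5 times, or whose majority of calls turned between higher and lower, are given. The share of all genes called also moves between settings. Where a count here or above stands without that share, the 2 were not set against each other.

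Without WT mouse 3 at 0h the WT counts were 8, 30, 48 and 15, the KO counts at 6h, 12h and 24h 50, 48 and 53, KO against WT at 0h, 2h, 6h and 12h 35, 5, 1 and 7, and the differences at 6h and 12h 23 and 44. Without mouse 3 of either genotype at 0h they were 12, 32, 49 and 18 in WT, 45 in KO at 12h, 1, 10, 1 and 10 for KO against WT and 2 and 30 for the differences. Without WT mice 1 and 4 they were 46 in WT at 2h, 13 and 34 in KO at 2h and 12h, 38, 1, 2 and 10 for KO against WT and 8 and 10 for the differences. Without WT mice 1 and 4 and WT mouse 3 at 0h they were 19, 36, 50 and 34 in WT, 18, 61, 54 and 57 in KO, 4, 3, 6 and 57 for KO against WT and 13 and 57 for the differences. The settings without KO mouse 3 at 0h, and those that join WT mouse 3 with another choice, were chosen after seeing the data.

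With replicate block by mouse the counts were 8, 25 and 25 in WT at 2h, 6h and 12h and 4 for the difference at 12h; the block changed no other count by over 1.5 times. With the block and without WT mouse 3 at 0h they were 6, 30, 51 and 18 in WT, 59, 51 and 56 in KO at 6h, 12h and 24h, and 34, 45 and 2 for the differences at 6h, 12h and 24h. With only the libraries compared they were 0, 3, 6 and 5 in WT, 15, 48, 49 and 58 in KO, 0 and 19 for KO against WT at 0h and 12h and 0 for the differences at 6h and 12h. With only these and without WT mouse 3 at 0h they were 0, 5, 20 and 18 in WT, 0 for KO against WT at 0h, and 0 and 30 for the differences at 6h and 12h.

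DESeq2 gave 29 in WT and 28 in KO at 12h, and 1 for KO against WT at 6h. Its size factors in edgeR gave 27 in KO at 12h and 1 for KO against WT at 12h. Library totals gave 37 in WT at 12h, 3, 36 and 40 in KO at 2h, 6h and 12h, 5, 1 and 1 for KO against WT at 0h, 2h and 6h, and 2 and 5 for the differences at 6h and 12h. With no filter there were 3 in KO at 2h, and 2, 1 and 0 for KO against WT at 0h, 2h and 12h.

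Leaving out 1 mouse at a time gave 1 to 35, 27 to 56, 36 to 49 and 16 to 60 in WT, and 2 to 11, 14 to 50, 15 to 48 and 22 to 54 in KO cells. It gave 0 to 35, 0 to 21, 0 to 7, 0 to 14 and 0 for KO against WT from 0h to 24h, and 0 to 24 and 1 to 46 for the differences at 6h and 12h. The lower ends in WT at 2h and 24h, and the upper ends for KO against WT and the differences, came without WT mouse 3.

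Of the named members' values, 2302 kept their side of the threshold, 99 became called, 232 lost a call and 45 turned. A value counts as turned only if it was called with all libraries or in the setting. Values that changed sign without a call are among the 2302. The joined settings of the block, or of only the libraries compared, without WT mouse 3 at 0h are left out of these counts. The turned values came without WT mouse 3, and are given in the order without WT mice 1 and 4 and mouse 3 at 0h, without mouse 3 at 0h, and without mouse 3 of either genotype at 0h. For KO against WT at 0h they were 0.42, 0.66 and 0.39 for Rpl13, 0.51, 0.57 and 0.27 for Rpl14, and 0.60, 0.54 and 0.20 for Rpsa, with 0.77 for Rpl13a and 0.80 for Rps15a in the second of these alone. For the WT change at 12h they were 0.56, 0.48 and 0.48 for Rpl22, 0.38, 0.32 and 0.32 for Rpl4 and 0.32, 0.29 and 0.29 for Rplp0. For its difference at 12h Rpl22 had -1.12, -1.05 and -0.84. For the WT change at 24h Rpsa had 0.60, 0.51 and 0.51, Rpl11 0.53 in the first alone, Rpl36al 0.60 in the first and 0.47 in the last, and Rplp2 0.0890 in the latter 2. At 6h Rpl39 had 0.0524 and 0.0522 in these. Leaving out 1 mouse at a time, values that turned ran from -2.46 to 0.62 for Rpl13, -1.72 to 0.53 for Rpl14, -2.35 to 0.51 for Rpsa, -0.96 to 0.73 for Rpl13a and -0.67 to 0.76 for Rps15a in KO against WT at 0h. In WT they ran from -2.08 to 0.0563 for Rplp2 and -2.37 to 0.50 for Rpsa at 24h, -1.85 to 0.10 for Rpl39 at 6h, and -0.21 to 0.32 for Rpl4, -0.38 to 0.32 for Rplp0 and -0.85 to 0.52 for Rpl22 at 12h. The difference at 12h for Rpl22 ran from -1.07 to 0.31. The mean log2 ratio of the summed level in WT turned without mouse 3, from -0.29 to 0.12 at 2h, -0.30 to 0.24 at 6h and -0.16 to 0.39 at 12h, and went from -0.60 to -0.07 at 24h; mouse 3 itself makes most of the spread between WT mice. In KO at 24h it went from -0.58 to -0.42 without KO mouse 3. The part of depth in the calls was not tested, and Rpl39l, Rpl23a and Rps6 rest on few counts.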
